A study of Mus musculus with 36 samples.

Results

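Pax3, Lbx1, Myf5 and Myod1 are 4 genes of the limb muscle lineage, and their surroundings were read here in H3K27ac ChIP-seq peak lists of mouse forelimbs at embryonic day 11.5. H3K27ac, acetylation of histone H3 at lysine 27, marks active enhancers and promoters. The members are all peaks that overlap 4 fixed mm9 windows: chromosome 1 from 78000000 to 78300000 for Pax3, chromosome 19 from 45200000 to 45400000 for Lbx1, chromosome 10 from 106700000 to 107050000 for Myf5, and chromosome 7 from 53550000 to 53750000 for Myod1. They hold 197 of the 732259 peaks in 18 lists, 1 list per library of pooled forelimbs, all from FVB mice. The libraries come from embryos that lack a limb enhancer, namely mm1179 (mm1179 KO, 4 libraries) or hs72, hs1262, hs1467, hs1586 or hs1603 (2 libraries each), and from wild-type embryos (WT, 4 libraries). No group received a treatment.

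The lists fall into 4 batches by a tag in their names, called runs 1 to 4, which the labels do not give. Run 1 holds replicates 1 and 2 of mm1179 KO and of WT, and run 2 holds replicates 3 and 4 of both with the 2 hs72 KO libraries. Runs 3 and 4 hold replicate 1 and replicate 2 of the other 4 lines and no WT library, so a difference of those lines from WT cannot be told apart from a difference between runs. Lists of run 3 had 26550 to 32472 peaks and those of run 4 had 54375 to 58753, against 30719 to 45267 in runs 1 and 2. Read counts are not part of these lists. Depth is therefore unknown, and where a peak is missing no call was made, which does not show that the mark was absent.

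Limb muscle comes from precursor cells that leave the lateral lip of the dermomyotome in the somites and migrate into the limb bud, where mesenchyme of another origin makes up most of the tissue. Pax3, a paired-box and homeobox transcription factor, marks these precursors and is needed for them to leave the somite. Lbx1, a homeobox factor, is needed for their migration into the limb. Myf5 and Myod1 are basic helix-loop-helix factors that commit cells to the muscle fate, and Myod1 comes on later than Pax3 and Lbx1. In pooled tissue, fewer precursor cells and less acetylation per cell cannot be told apart.

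No annotation of mm9 was used here, so no peak is assigned to a promoter, and the tissue label could not be checked against marker genes. In RefSeq's gene order (GRCm38.p6) the neighbouring genes are Epha4 and Gm2102 beside Pax3, Tlx1 and Btrc beside Lbx1, Lin7a and Myf6 (another muscle basic helix-loop-helix factor) beside Myf5, and Otog and Kcnc1 beside Myod1, and a peak in a window may belong to a neighbour. RefSeq's promoter table matched 1 of the 4 members, Myf5. Its sequence is shown because the Myf5 window held the region whose width varied most among the regions called in all WT libraries. It lies at chr10:107486085-107486384 on the minus strand of GRCm38.p6, from 250 bases before to 50 after the annotated start, and capitals mark TATAAA, the TATA-box letters.

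Myf5 promoter: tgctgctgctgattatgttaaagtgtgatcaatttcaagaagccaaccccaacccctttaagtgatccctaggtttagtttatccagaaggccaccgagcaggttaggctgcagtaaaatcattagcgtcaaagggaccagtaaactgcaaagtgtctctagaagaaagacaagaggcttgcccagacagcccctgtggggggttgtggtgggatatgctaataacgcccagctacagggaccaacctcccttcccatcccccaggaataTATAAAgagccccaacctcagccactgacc

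Searched on both strands, TATAAA occurred 1 time in the Myf5 promoter, starting at position 21 after the annotated start, and 13.6% of 32817 promoters of this length in the table hold it. CANNTG, the E-box that factors of the Myf5 and Myod1 family bind, did not occur in these 300 bases, and 72.3% of the promoters hold it. TATAAA is thus the only marked stretch. These are descriptions of the letters alone, and the mm9 peaks could not be placed on this GRCm38.p6 sequence.

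Peaks of the 4 windows ranked low in score as a whole, but those of Pax3 less so in WT and over all lists. A peak's score percentile is the share of its own list with a lower score, so the median peak of a list stands near 50. Only 61 of the 197 peaks (31.0%) were above 50, the median percentile was 35.2, and no peak was in the top 10% of its list. The highest percentile, 82.0, was in the Lbx1 window of hs1262 KO replicate 2. By window, 34 of 65 Pax3 peaks (52.3%) were above 50, against 17 of 55 for Myf5, 10 of 67 for Lbx1 and 0 of 10 for Myod1. In the WT lists 9 of 34 peaks were above 50, and 8 of these 9 were among the 12 Pax3 peaks, whose median percentile was 57.5. Myf5 had 1 of 13 and Lbx1 0 of 9 above 50 in WT. In mm1179 KO, Pax3 did not stand out from Myf5. There 4 of 14 Pax3 peaks were above 50 (median percentile 37.8) and 3 of 10 Myf5 peaks (median 36.3). Lbx1 had 2 of 14 and Myod1 0 of 2 above 50 in mm1179 KO. The median width in WT was 1962 bp for Pax3, 1506 bp for Myf5 and 1230 bp for Lbx1, and 1834 bp for all peaks of the WT lists. By the median, Pax3 peaks in WT thus stood above the middle of their lists, though the lowest was at a percentile of 0.240. Those of Myf5 and Lbx1 stood mostly below the middle. Over all lists the median width was 1841 bp in the windows and 2134 bp for all peaks.

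**Figure D1:**
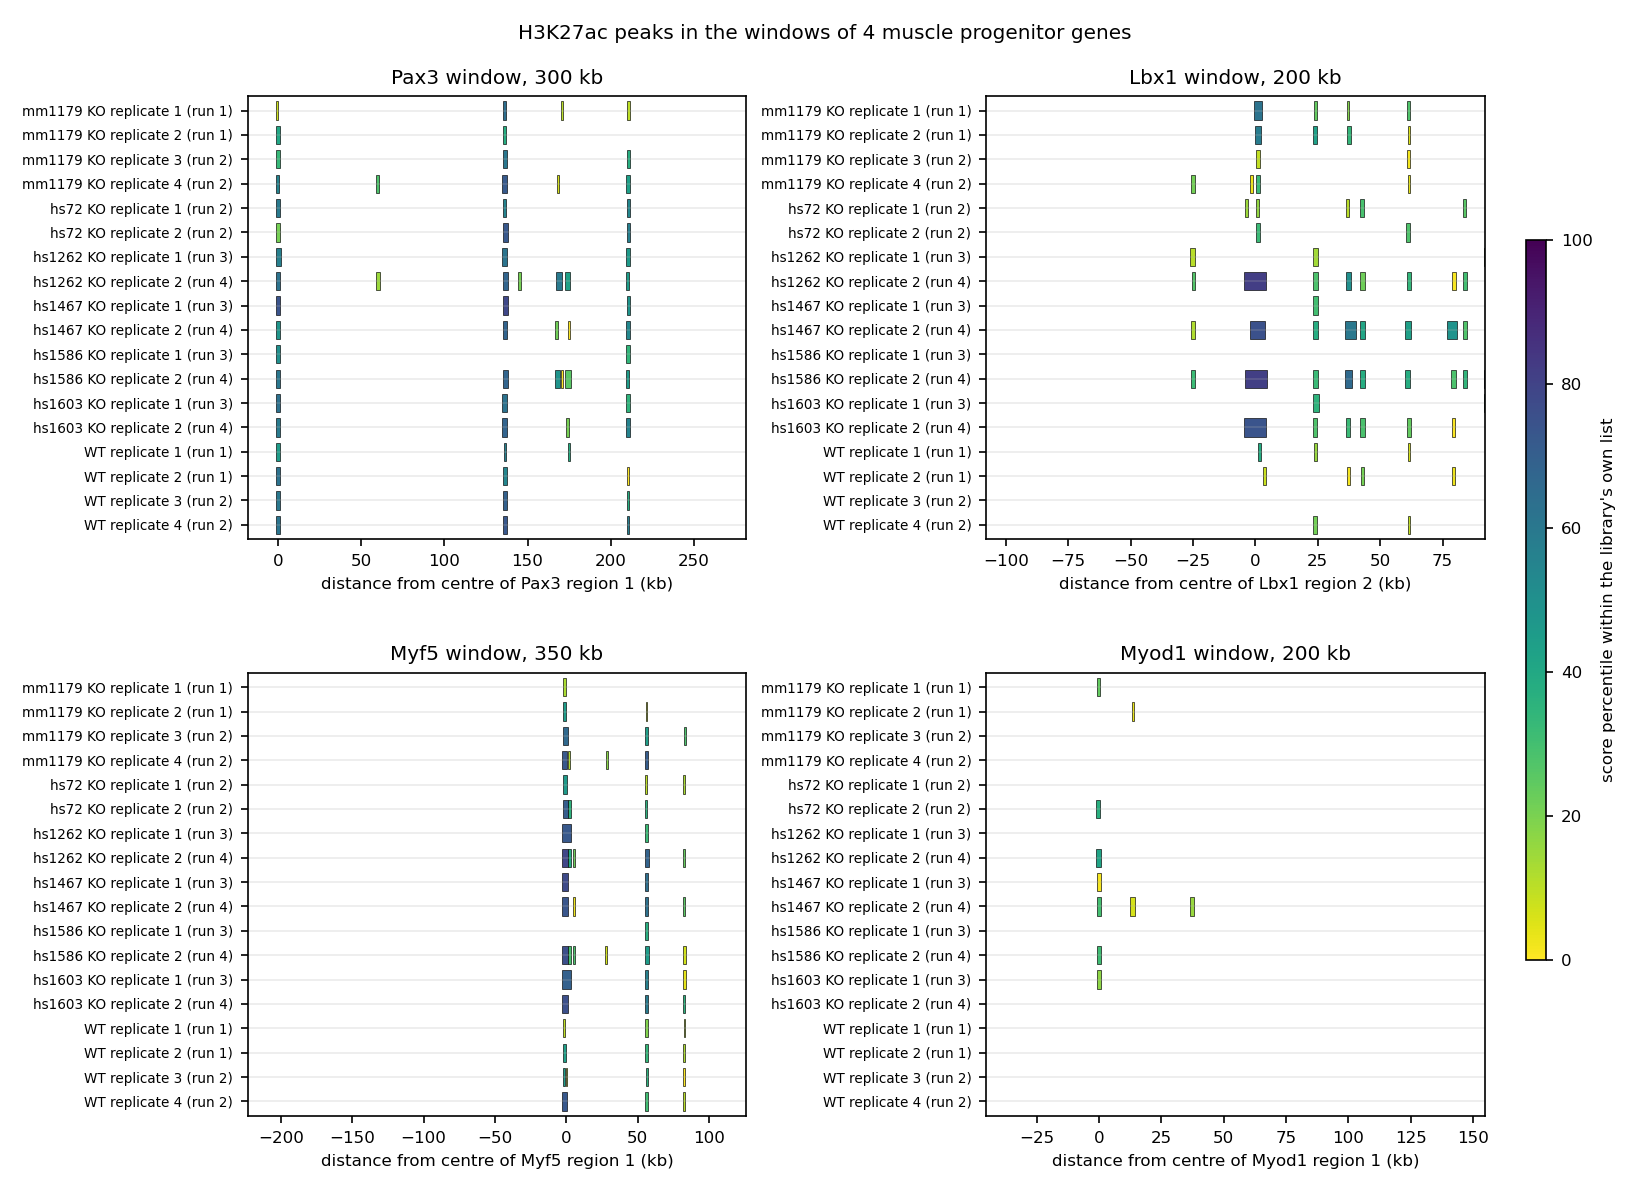
H3K27ac peaks of each library (rows, knockout lines above WT) in the 4 windows, drawn to scale as distance in kb from the centre of a region in each window and coloured by score percentile in the library's own list. Pax3 region 1 has a peak in every row, Lbx1 region 2 is broad only in the 4 run 4 libraries and has no peak in the run 3 libraries, and the WT rows of the Myod1 window are empty.

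Peaks of the 18 lists were merged into consensus regions wherever 2 or more libraries had one, and the regions are numbered along each window. The 4 windows held 23 of the 63594 regions of the genome: 7 for Pax3, 9 for Lbx1, 5 for Myf5 and 2 for Myod1. The median muscle region was called in 6 libraries, and the median region of the genome in 11. One region, Pax3 region 1, was called in all 18 libraries, which is 4.35% of the 23, and 16.5% of all regions were. At least 16 libraries called 5 of the 23 (21.7%), against 27.8% of all regions. All 4 WT libraries called 5 of the 23 (21.7%), 2 for Pax3 and 3 for Myf5, against 36.4% of all regions. No WT library called 10 of the 23 (43.5%), against 23.5% of all regions. For the 23, only the part inside the window was counted, while the shares over all regions count whole regions. The 2 ways differ for Lbx1 region 9 alone, called in 3 libraries inside the window and in 16 as a whole. Counted whole, it would meet the rule of at least 16 libraries and would not be a region without a WT call.

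By the strongest peak in WT, the order of the windows was Pax3, Myf5, Lbx1 and Myod1, with overlaps. This is an order of windows of 300, 350, 200 and 200 kb, not of genes, since no peak was assigned to a gene. The highest score percentile in the Pax3 window was 57.3, 62.3, 69.2 and 72.8 in WT replicates 1 to 4. In the Myf5 window it was 19.0, 44.0, 45.0 and 73.0 in the same libraries. In the Lbx1 window it was 38.5, 21.0 and 21.3 in WT replicates 1, 2 and 4, with no peak in replicate 3. The Pax3 and Myf5 ranges overlap, as do those of Myf5 and Lbx1, so these neighbours in the order did not differ beyond their spread. By regions called, Pax3 and Myf5 were equal in WT, with 3 regions in every library. The Myod1 window had no peak in any WT library.

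Set against the whole genome, cut into windows of the same width, the Pax3, Myf5 and Lbx1 windows stood near the middle. Among windows with at least 1 WT peak they stood lower, above 38.5%, 33.6% and 28.8% of them. Peaks covered 5.68 ± 0.47 kb of the Pax3 window in WT (SD, n = 4), more than 54.6% of 8777 windows of 300 kb. Coverage of the Myf5 window was 5.25 ± 1.24 kb in WT (SD, n = 4), more than 49.7% of 7523 windows of 350 kb. The Lbx1 window had 2.75 ± 2.09 kb in WT (SD, n = 4), more than 51.3% of 13175 windows of 200 kb. The spread in Lbx1 came with WT replicate 3, which had 0 kb, while the others had 3.55, 4.96 and 2.50 kb. The empty Myod1 window was one of 4175 windows of its width (31.7%) with no peak in any WT library.

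**Figure D2:**
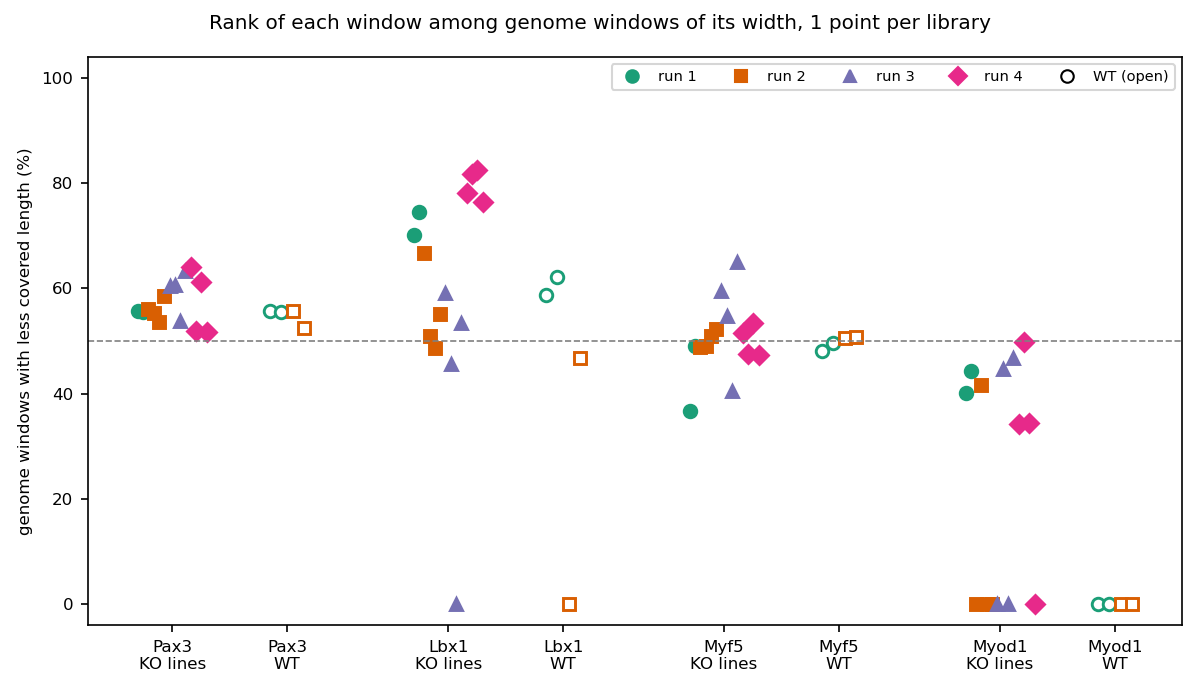
Percentage of genome windows of the same width with less covered length than each muscle window (y axis), 1 point per library, knockout lines (filled) left of WT (open) for each gene, with the run as marker. The Pax3 points lie between 51.8% and 64.1% and the Myf5 points between 36.7% and 65.1%, around the dashed line at 50%, while the 4 run 4 points of Lbx1 lie between 76.4% and 82.4%, and a point at 0% is a library with no peak in that window.

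Of the 4 windows, that of Pax3 alone held a region called in every library. Pax3 region 1 (chromosome 1 from 78016895 to 78019823) was called in 18 of 18 libraries, with 859 bp common to all. Its strongest peak was 1134, 2249, 2173 and 2163 bp wide in mm1179 KO replicates 1 to 4, and 2134 to 2792 bp in the 10 libraries of the other lines. In WT replicates 1 to 4 it was 1954, 2209, 2149 and 2374 bp wide. Apart from mm1179 KO replicate 1, every library thus had a peak between 1954 and 2792 bp. The score percentile varied more, at 7.75, 40.6, 32.9 and 55.2 in mm1179 KO, against 45.3, 62.3, 60.04 and 61.6 in WT. Over all 8 libraries the groups overlap, since mm1179 KO replicate 4 is above WT replicate 1. Within run 1 and within run 2, both mm1179 KO percentiles were below both WT percentiles, a contrast noticed after the values were seen and not tested, between lists of different length. It was not particular to mm1179 KO, since both hs72 KO libraries of run 2, at 59.2 and 20.8, were also below both WT percentiles of that run.

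Pax3 region 3 (chromosome 1 from 78152957 to 78156664), 136.5 kb from region 1 between centres, was called in 17 of 18 libraries, all but hs1586 KO replicate 1, the shortest list. It scored higher in most libraries, at percentiles of 64.3, 38.2, 60.5 and 71.9 in mm1179 KO, 55.2 and 72.9 in hs72 KO, and 57.3, 54.1, 69.2 and 72.8 in WT. In the 4 run 4 libraries it held the Pax3 window's highest score, within the narrow span of 67.7 to 68.2. Pax3 region 7 (chromosome 1 from 78227751 to 78229869) was called in 16 libraries and missing from mm1179 KO replicate 2 and WT replicate 1. The other 4 Pax3 regions were called in 2 to 5 libraries. Of these, region 6 (chromosome 1 from 78191029 to 78194073) had a peak in all 4 run 4 libraries and in WT replicate 1, and in no other.

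Myf5 showed one region that was nearly always called but of very unequal width. Myf5 region 1 (chromosome 10 from 106920286 to 106926821) was called in 17 of 18 libraries, again all but hs1586 KO replicate 1, and 1161 bp were common to the 17. The strongest peak measured 1739, 2074, 3248 and 4101 bp in mm1179 KO replicates 1 to 4 and 2594 and 3347 bp in hs72 KO. In WT replicates 1 to 4 it measured 1185, 1855, 1674 and 3534 bp. The groups overlap, and the widest peak of both groups was in the replicate 4 library of run 2. In run 4 the widths were 4134 to 4578 bp, and in run 3 they were 6410, 4353 and 6330 bp for hs1262, hs1467 and hs1603 KO.

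The score rank of Myf5 region 1 was as uneven. The percentile was 12.5, 45.0, 66.3 and 72.8 in mm1179 KO and 9.39, 44.0, 45.0 and 73.0 in WT, with 46.1 and 70.8 in hs72 KO. The 7 libraries of runs 3 and 4 that called it lay between 69.5 and 79.1. WT replicates 1 and 4 thus span nearly the whole range of the 17 libraries. Each percentile refers to its own list, and lists of different length do not show a change between libraries.

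**Figure D3:**
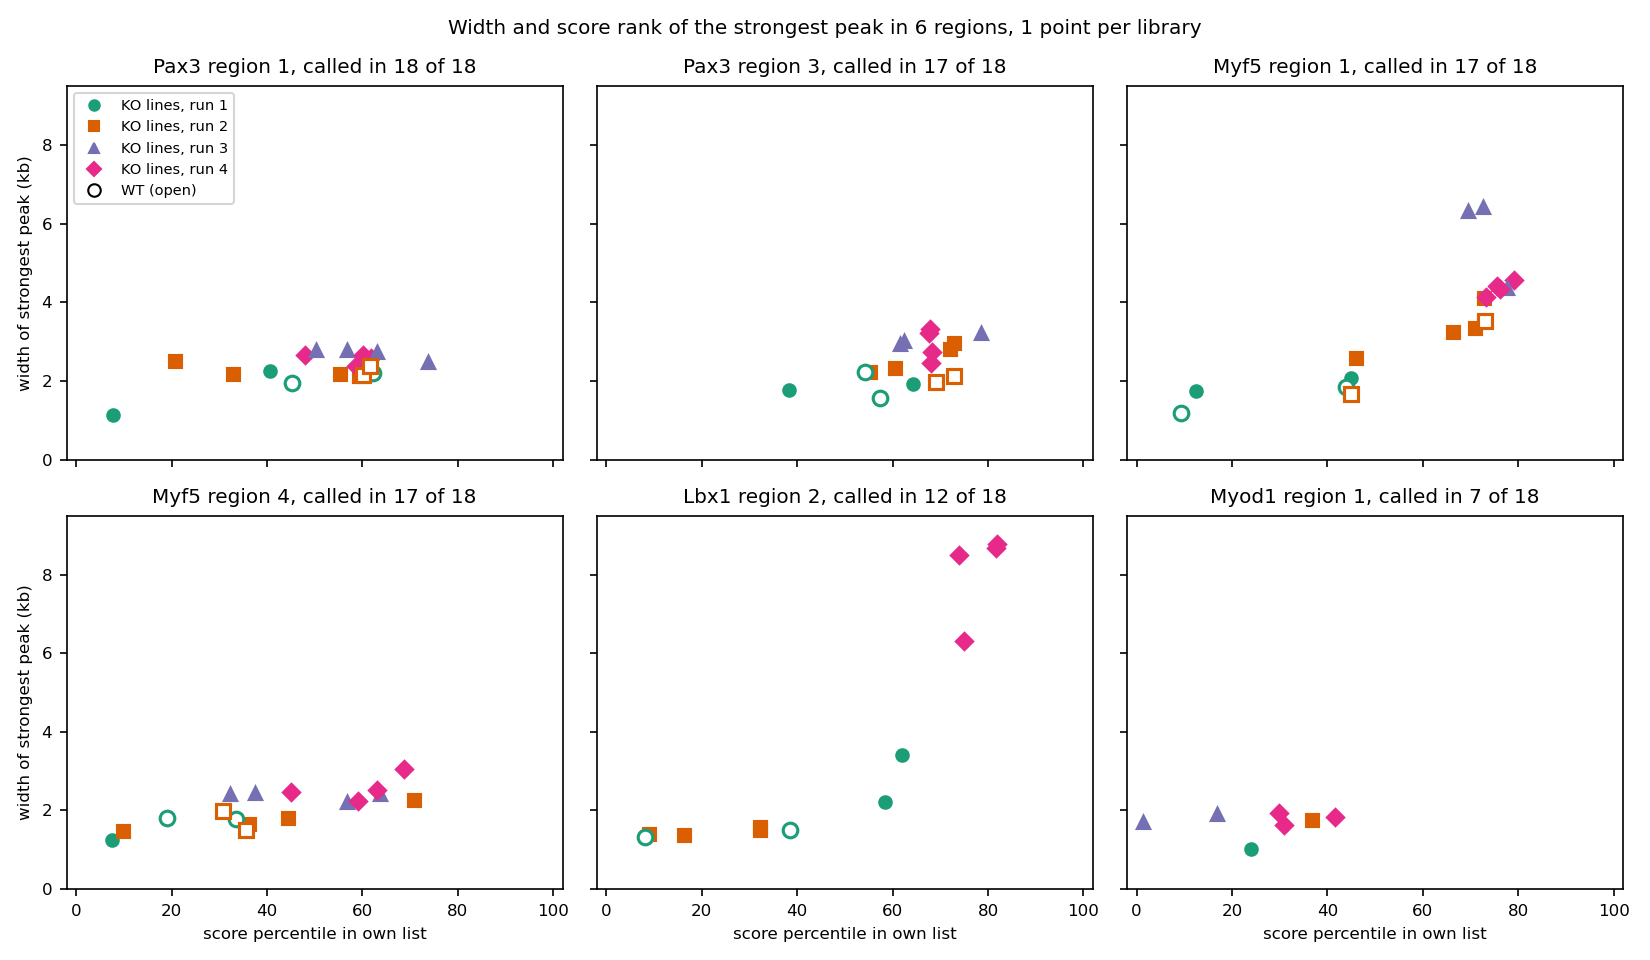
Width of the strongest peak in kb (y axis) against its score percentile in the library's own list (x axis) for 6 regions, 1 point per library that called the region, with knockout lines filled, WT open and the run as marker. Pax3 region 1 stays near 2 to 3 kb at most scores, Myf5 region 1 runs from 1185 to 6410 bp, and in Lbx1 region 2 the 4 run 4 points stand apart above 6 kb.

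Myf5 region 4 (chromosome 10 from 106978601 to 106981302), 56.4 kb from region 1, was called in all but mm1179 KO replicate 1. Its percentile was 7.59, 44.3 and 70.8 in mm1179 KO replicates 2 to 4 and 19.0, 33.6, 35.6 and 30.7 in WT replicates 1 to 4. The mm1179 KO values thus reach below and above all WT values. Myf5 region 5 (chromosome 10 from 107005412 to 107007239) was called in 1 of 4 mm1179 KO libraries and 4 of 4 WT libraries, the most uneven split in the windows. Fisher's exact test gave p = 0.143 for it, and 1 after adjustment over all regions. It was also called in 1 of 2 hs72 KO libraries, 1 run 3 library and all 4 run 4 libraries, and its WT percentiles were low, from 0.379 to 12.3. The 220.3 kb at the lower end of the Myf5 window held no peak in any library.

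Lbx1 gave the widest contrast between libraries of the same lines. Lbx1 region 2 (chromosome 19 from 45303558 to 45312403), singled out after its values were seen, was called in 12 libraries: all 4 of mm1179 KO, both of hs72 KO, all 4 of run 4, and WT replicates 1 and 2. The run 4 peaks were 8773 bp wide in hs1262 KO, 6309 bp in hs1467 KO, 8683 bp in hs1586 KO and 8506 bp in hs1603 KO. These were wider than 95.6% to 98.7% of the peaks in their own lists, at score percentiles of 73.9 to 82.0. None of the run 3 libraries of the same 4 lines had a peak there. Of those 4 libraries, 3 called Myf5 region 1 with a peak of 4353 bp or more, and why the 2 regions differ in this was not tested.

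Outside run 4 the same region held short pieces. The strongest peak was 3418, 2214, 1394 and 1496 bp wide in mm1179 KO replicates 1 to 4, 1383 and 1588 bp in hs72 KO, and 1494 and 1322 bp in WT replicates 1 and 2. The percentiles were 62.1, 58.5, 9.002 and 32.1 in mm1179 KO, 16.3 and 32.3 in hs72 KO, and 38.5 and 8.03 in WT. The most that any base of the region had was 11 libraries, over 736 bp, because the WT replicate 2 peak lay outside those bases. Within run 1, both mm1179 KO percentiles were above both WT percentiles at Lbx1 region 2, whereas at Myf5 region 1 the values of mm1179 KO and WT interleave.

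Of the other Lbx1 regions, regions 3 and 6 were called in 11 libraries each and regions 1, 4, 5, 7 and 8 in 4 to 8. Counting regions called in all 4 run 4 libraries and in none of run 3, a rule set after the values were seen, 5 of 9 Lbx1 regions and 1 of 7 Pax3 regions met it, and none of Myf5 or Myod1. That is 6 of 23 (26.1%), where 17.4% of all regions meet it. Lbx1 coverage was 20.6, 23.5, 22.8 and 16.3 kb in run 4 for hs1262, hs1467, hs1586 and hs1603 KO, or 0.0116% to 0.0149% of all sequence those lists cover. In run 3 the same lines had 4.30, 1.80, 0 and 2.59 kb, at most 0.00459%. Whole run 4 lists covered 140.9 to 166.0 Mb and run 3 lists 89.6 to 93.6 Mb, and what part this has in the Lbx1 values was not tested. Region 9 straddles the upper end of the window, and its part inside, 369 bp, was called in 3 libraries, while the whole region of 2559 bp was called in 16.

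Myod1 had the fewest peak calls. Its window had 10 peaks in all, in 8 libraries, none of them WT, and none was above the median score of its list. Myod1 region 1 (chromosome 7 from 53594260 to 53596227), also singled out after its values were seen, was called in 7 libraries: mm1179 KO replicate 1, hs72 KO replicate 2, both hs1467 KO libraries, hs1262 and hs1586 KO replicate 2, and hs1603 KO replicate 1. Its peaks were 1012 to 1938 bp wide at percentiles of 1.33 to 41.5. Region 2 was called in mm1179 KO replicate 2 and hs1467 KO replicate 2 alone. The remaining peak (chromosome 7 from 53631808 to 53633359) was in hs1467 KO replicate 2 only and so formed no consensus region. It was 1552 bp wide at a percentile of 15.4. The last 116.6 kb of the window held no peak in any library.

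The comparison of mm1179 KO with WT asks whether loss of one limb enhancer goes with a different H3K27ac pattern at the muscle genes. No window passed the test for covered length, though 1 window alone could not have passed it after adjustment. In the Pax3 window it was 5.55, 4.02, 6.10 and 9.85 kb in mm1179 KO replicates 1 to 4 and 5.10, 5.78, 5.60 and 6.24 kb in WT. The mean difference was 0.699 kb (exact two-sided permutation test, p = 0.771, adjusted p = 0.943 over the 4 windows), with mm1179 KO replicate 4 above and replicate 2 below all WT libraries. Without replicate 4 the difference was -0.457 kb.

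The Lbx1 window had 6.78, 6.31, 2.52 and 4.98 kb in mm1179 KO and 3.55, 4.96, 0 and 2.50 kb in WT, so 3 of 4 mm1179 KO libraries were above every WT library, the closest by 4.98 to 4.96 kb. The means were 5.14 ± 1.91 kb in mm1179 KO and 2.75 ± 2.09 kb in WT (SD, n = 4 each). The difference of 2.39 kb had p = 0.114 in the same exact test, which exchanges libraries across runs, and an adjusted p of 0.457. Within run 1 it was 2.29 kb and within run 2 it was 2.49 kb, each with an exact p of 0.333, the smallest that 2 against 2 libraries can give. Without WT replicate 3 the difference was 1.47 kb. In each run both mm1179 KO libraries were above both WT libraries, in run 2 only narrowly, at 2.515 against 2.505 kb.

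In the Myf5 window the values were 1.74, 3.33, 6.41 and 9.01 kb in mm1179 KO and 3.89, 5.04, 5.17 and 6.90 kb in WT. Their difference of -0.125 kb (exact permutation p = 0.943, adjusted p = 0.943) hides a spread in mm1179 KO, where 2 libraries lay below all WT libraries and 1 above. Within run 1 the difference was -1.93 kb and within run 2 it was 1.68 kb. It was 1.00 kb without mm1179 KO replicate 1, 0.473 kb without mm1179 KO replicate 2 and 0.425 kb without WT replicate 4. For Myod1, mm1179 KO had 1.01, 1.02, 0 and 0 kb and WT had 0 kb in all 4 (exact permutation p = 0.429, adjusted p = 0.857). Both mm1179 KO libraries with a peak were of run 1. With 4 libraries a group the lowest p possible in this test is 0.0286. After adjustment over the 4 windows, 1 window that differed alone could therefore not reach an adjusted p under 0.05. That no window passed thus does not show that coverage was alike.

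**Figure D4:**
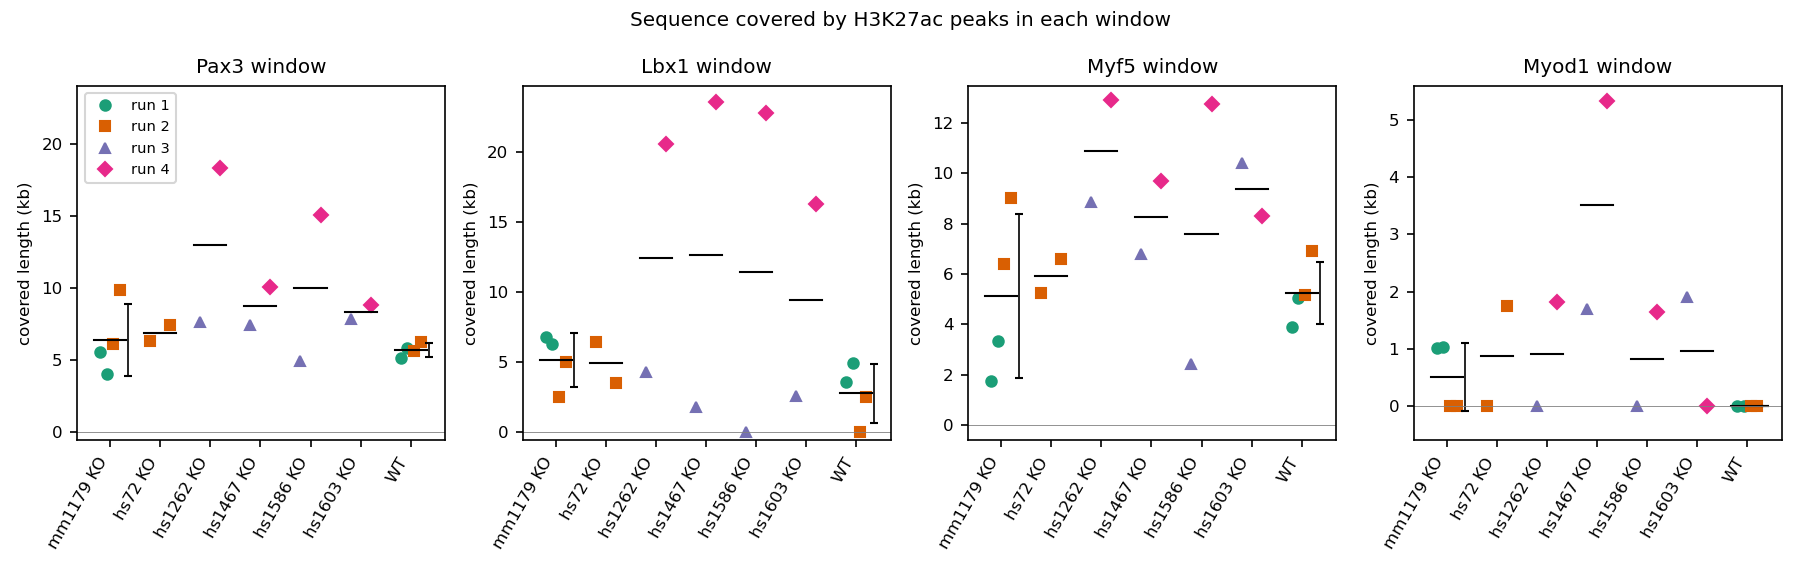
Length of each window covered by H3K27ac peaks in kb (y axis) by genotype (x axis, knockout lines left of WT), 1 point per library with the run as marker, the group mean as a line and the SD as a bar for the groups of 4. In the Lbx1 window 3 mm1179 KO libraries lie above all WT libraries and the run 4 libraries lie between 16.3 and 23.5 kb, whereas WT lies at 0 kb throughout in the Myod1 window.

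The number of regions called gave no larger contrast. The mm1179 KO minus WT differences were 0.5 regions for Pax3, 1 for Lbx1, -0.75 for Myf5 and 0.5 for Myod1, and each had an adjusted p of 0.714 in the exact permutation test. Region by region, 20 of the 23 could be tested, and none was called in all 4 mm1179 KO and no WT library or the reverse. Over the genome 0.0348% of 54583 regions were called in all 4 mm1179 KO and no WT library and 0.0769% in all 4 WT and no mm1179 KO library. By Fisher's exact test 0.112% of the 54583 had an unadjusted p under 0.05, none of them in the windows, and 0% passed Benjamini-Hochberg adjustment. The lowest p possible in Fisher's exact test is 0.0286 here too, so the count of 0 after adjustment does not show that calls were alike.

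The hs72 KO libraries can be set beside the WT libraries of run 2 only as values. Coverage was 6.27 and 7.44 kb in hs72 KO against 5.60 and 6.24 kb in WT replicates 3 and 4 for Pax3, and 5.25 and 6.61 kb against 5.17 and 6.90 kb for Myf5. In the Lbx1 window it was 6.42 and 3.50 kb in hs72 KO against 0 and 2.50 kb in these WT libraries, and for Myod1 0 and 1.75 kb against 0 and 0 kb. Both hs72 KO libraries were thus above both WT libraries for Pax3 and Lbx1, for Pax3 only narrowly, at 6.269 against 6.242 kb. The groups overlap for Myf5 and Myod1. With 2 libraries against 2, no test was made.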

How the data were processed

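H3K27ac peak lists of 18 forelimb libraries were used, 1 deposited list per library. The 18 input samples were not used here. MACS 1.4.2, Bowtie 0.12.8, cutadapt 1.1, bcl2fastq 2.17 and CASAVA are named, with build mm9, per the submitters' processing notes. How the inputs were used is not given in the sources used here. The lists deposited by the authors hold peak positions and a score, the peak's own value, from 40 to 3233. Scores served only to rank or filter peaks within a list. No lists were identical.

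The labels gave groups and replicate numbers, and the runs were read from a tag in the list names. Nothing says that replicates come from separate litters, so p-values measure only the spread between libraries, which may be technical. An overlap of 1 bp with a peak sufficed to call a region, counting only its part inside the window. Covered length was cut at the window's ends. Exact two-sided permutation tests of 70 arrangements compared mm1179 KO with WT, adjusted over the 4 windows by Benjamini-Hochberg. Fisher's exact test was run on all regions. Genome windows ran from base 1 of the autosomes and the X chromosome to the last peak. Alternatives were a minimum score of 100, lists of 26550 peaks, peaks wholly inside a window, 50% of a region covered, regions of 1 library, scaling to the library's coverage, genome windows shifted or limited to those with a WT peak, the replicate block, single runs and leaving out replicates.

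Named regions were, in each window, up to 5 called in all 4 WT libraries and any that separated mm1179 KO from WT. Exceptions were chosen after their values were seen, and these are all regions named apart from Pax3 regions 1 and 3 and Myf5 regions 1, 4 and 5. The members, windows and comparisons were chosen with earlier results of these data known. The planned lists of other muscle and cell type markers need an mm9 annotation and were not analysed here. Coordinates are 1-based, and the promoter is from RefSeq's GRCm38.p6. Work was done in Python 3.11.15 with scipy 1.17.1, numpy 2.4.6 and, for figures, matplotlib 3.10.9.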

Additional observations from a re-analysis of the deposited data

How the results depend on the processing

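Among 175 values under other settings, 13 turned in sign. A further 25 moved, which means to or from 0 for a difference, by over 1.5 times for a count, or by more than the SD over WT libraries for a rank. The other 137 did neither, but a difference among them may have changed in size: for Pax3 coverage it was 2.05 kb within run 2 and for Myf5 -1.93 kb within run 1. No difference between mm1179 KO and WT had a p under 0.05 in any of them, and the lowest was 0.0571, for Lbx1 coverage with 1 library left out. The cause of the changes was not tested, except that fewer libraries to match can only raise the count of regions called in all. The lists hold no read counts, so what depth limits cannot be computed.

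Covered length, mm1179 KO minus WT, was -1.77 kb for Pax3, 1.60 kb for Myf5 and 0 kb for Myod1 with a minimum score of 100. On lists of equal length it was -0.588 kb, 0.785 kb and 0 kb for the same genes. Within run 1 the Pax3 difference was -0.656 kb, and within run 2 that of Myf5 was 1.68 kb and that of Myod1 0 kb. Leaving out 1 library gave -0.457 to 1.48 kb for Pax3, 1.47 to 3.27 kb for Lbx1, -1.42 to 1.00 kb for Myf5 and 0.337 to 0.678 kb for Myod1. The Lbx1 difference kept its sign throughout.

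Regions called, mm1179 KO minus WT, numbered -1 for Pax3, 0.5 for Myf5 and 0 for Myod1 with a minimum score of 100. On lists of equal length the differences were -0.25, 0 and 0. With 50% of a region covered the difference was 0 for Pax3 and for Lbx1. Within run 1 it was 0 for Pax3, and within run 2 it was 0 for Myf5 and for Myod1. With 1 library left out it ranged from 0 to 1 for Pax3, 0.25 to 1.58 for Lbx1, -1 to -0.333 for Myf5 and 0.333 to 0.667 for Myod1. Separated regions numbered 0 to 1 with 1 library left out, the one being Myf5 region 5 without mm1179 KO replicate 3.

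With the replicate block the differences stay as they are, and their exact sign-flip p was 0.125 to 0.875 for the 8 comparisons, where the smallest possible is 0.125. Same-numbered libraries of mm1179 KO and WT come from the same run. Over 35098 regions the deviations of such pairs correlated at 0.0111 to 0.0595, too weakly to take the numbers as pairs, and 1 of 4 WT libraries correlated best with its own number. Over all pairs, those of the same run correlated at 0.0111 to 0.0626 and those of different runs at -0.0616 to -0.0186. This split was not tested.

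Regions called in all libraries numbered 0 on lists of equal length, with a minimum score of 100 and with 50% of a region covered, and 3 without run 1 or without run 3, against 1 in all 18. The Pax3 window exceeded 59.2% of genome windows with a minimum score of 100, 59.5% when lists were made equally long and 38.5% among windows with a WT peak, and 54.3% to 55.6% with 1 WT library left out. For Myf5 these were 42.2%, 44.7%, 33.6% and 49.2% to 50.3%. The Lbx1 window fell to 0% with a minimum score of 100, where no WT peak remained in it. It exceeded 41.0% when lists were made equally long, 28.8% among windows with a WT peak, and 46.9% to 56.0% with 1 WT library left out.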
